A study of Bos taurus with 92 samples.

Results

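Single bovine blastocysts made by somatic nuclear transfer (NT) were set against single blastocysts fertilised in vitro (IVF), over every named gene on a custom 2-colour cDNA microarray. The members were the 15 NT and the 15 IVF embryos so typed in the labels, 30 of the 46 samples and 60 of the 92 arrays of the series. The other samples were 14 embryos from artificial insemination (AI) and 2 of donor cells, the somatic cells whose nuclei were transferred, and their levels are given only beside those of the members. Of the NT embryos, 8 have labels that begin with 2_ and 7 labels that begin with 3_, and the labels say nothing of what sets these apart, of the donor cell line, of the sires or of embryo sex. All 3 kinds of embryo were at the blastocyst stage and shared a single reference RNA, which was amplified over fewer rounds than the RNA of the embryos. Each embryo was hybridised against it on 2 arrays with the dyes exchanged.

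In nuclear transfer the nucleus of a differentiated cell is placed in an oocyte without chromosomes, and the oocyte cytoplasm must return it to a state from which an embryo can form. A blastocyst has an outer epithelium, the trophectoderm, which pumps fluid into the cavity and gives rise to the placenta, and an inner cell mass, from which the fetus comes. At this stage the embryo relies on its own transcripts, oxidative metabolism rises, and in cattle the trophoblast begins to secrete proteins that only ruminants make. Because whole embryos were measured, a change in the share of a cell type and a change in RNA per cell cannot be told apart.

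A value is the log2 ratio of embryo to reference, averaged over the 2 arrays of the embryo after each array was centred on its median, so that 0 is the median probe of the array and a difference of 1 is a 2-fold change. Differences are NT minus IVF and are followed by the model's standard error (SE) after ±, and adjusted p values come from limma with Benjamini-Hochberg adjustment over 4398 genes. The direction of the deposited ratio was inferred from the dye swap and from donor cell genes and is likely, not certain. The 2 arrays of an embryo correlated with r from 0.638 to 0.704 in NT and from 0.559 to 0.764 in IVF embryos, and an embryo correlated with the mean of the others of its kind with r from 0.847 to 0.911 in NT and from 0.764 to 0.921 in IVF embryos. No hybridisation day or batch is recorded. The way an embryo was made and any such batch cannot be told apart. A p value sets a difference of means against the spread between samples of 1 kind, estimated over all 46 samples, AI embryos and donor cells included.

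The labels of embryos and of donor cells were set beside markers. KRT8 and KRT18, keratins of the trophectoderm, averaged 1.62 and 2.16 in NT embryos, 1.62 and 2.12 in IVF embryos and -3.80 and -3.00 in the donor cells. COL1A2 and COL3A1, fibrillar collagens of fibroblasts, averaged -3.80 and -5.16 in NT embryos, -3.73 and -5.18 in IVF embryos and 1.46 and 0.97 in the donor cells. Both kinds of embryo thus had the keratins above and the collagens below the donor cells. The direction of the ratio was itself inferred in part from donor cell genes, so this is not an independent check. Nor can these markers tell NT from IVF labels, because their levels were similar in both kinds of embryo. Of 16 fibroblast genes 2 rose and 3 fell in NT embryos with a median difference of -0.10, and neither COL1A2 (-0.07 ± 0.11, adjusted p = 0.694), COL3A1 (0.03 ± 0.12, adjusted p = 0.907) nor VIM, an intermediate filament of mesenchymal cells (-0.06 ± 0.09, adjusted p = 0.692), passed the test. Of cumulus and oocyte markers CYP19A1 (0.02 ± 0.15, adjusted p = 0.930), TNFAIP6 (-0.00 ± 0.19, adjusted p = 0.998), UCHL1 (-0.32 ± 0.17, adjusted p = 0.175) and ZP3 (-0.10 ± 0.23, adjusted p = 0.806) did not pass. Only HSD3B1, which makes progesterone, was lower in NT embryos (-1.34 ± 0.31, adjusted p = 0.00114). That call ended with the sample in Cy5 alone and where a value from 1 array was allowed.

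Relative to the median gene, 27 of 46 measured subunits of the respiratory chain were higher in NT embryos than in IVF embryos, and 2 were lower. Of 27 hnRNP and SR proteins of the nucleus 10 were higher and 2 lower, of 10 histone genes 5 were higher and 0 lower, and of 21 proteasome subunits 8 were higher and 1 lower. Of 20 genes of the NRF2 antioxidant programme 7 were lower and 2 higher, and of 14 secreted trophoblast proteins 3 were lower and 0 higher. Over all genes, 612 of 4398 genes were higher in NT embryos (13.9%) and 454 were lower (10.3%), together 24.2% of the genes. Every list count in this report is to be read against these shares. At least 2-fold differences were seen in 76 genes that were higher (1.73%) and 42 that were lower (0.955%), and 584 of the called genes differed by less than 1.5-fold. Of 7992 probes 1835 passed (23%), and of 2485 probes without a single gene symbol 508 passed (20.4%). These directions are relative to the median gene. As deposited, without centring, the median gene was 0.38 higher in NT embryos, and 1710 genes were then higher and 45 lower, so that 97.4% of the calls were rises, against 57.4% after centring.

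**Figure D1:**
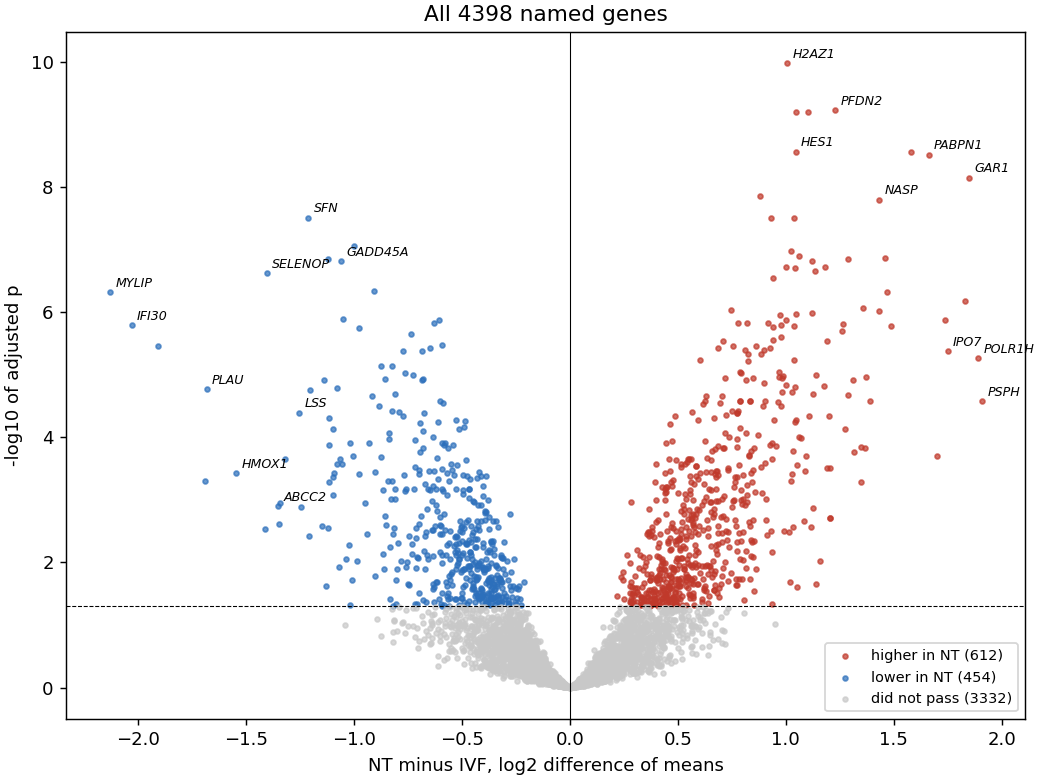
Difference NT minus IVF in log2 units (x axis) against -log10 of the adjusted p (y axis) for the 4398 named genes. Red points are the 612 genes higher in NT embryos, blue points the 454 lower ones and grey points the 3332 that did not pass the threshold of 0.05, drawn as a dashed line.

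In 11 genes every NT embryo lay above every IVF embryo (0.25% of the genes tested), and in 2 every NT embryo lay below (0.0455%). H2AZ1, a histone H2A variant found at promoters, had the smallest adjusted p of all genes (1.05e-10). Its level was 0.08, 0.40 and 0.64 (lowest, median and highest) in NT embryos, against -1.29, -0.53 and -0.31 in IVF embryos, a difference of 1.01 ± 0.09. NASP, a chaperone of histones H3 and H4, had 1.31, 1.79 and 2.53 in NT embryos and -1.15, 0.55 and 1.14 in IVF embryos (1.43 ± 0.17, adjusted p = 1.59e-08). HES1, a repressor switched on by Notch signalling, had -0.29, 0.21 and 1.11 in NT and -1.22, -0.84 and -0.49 in IVF embryos (1.05 ± 0.11, adjusted p = 2.71e-09). The other genes whose NT embryos lay above were HSP90AA1, PFDN2, NDUFA2, HNRNPH2, EIF3H, PSMC2, HIGD1A and LZTR1. The last 2 lie outside the rule for named genes and were chosen after their values were seen. HIGD1A, a protein of the inner mitochondrial membrane induced by low oxygen, had 1.77, 2.23 and 2.80 in NT embryos and 0.30, 1.26 and 1.74 in IVF embryos. LZTR1, an adaptor for the removal of RAS proteins, had 0.245, 0.71 and 2.21 in NT embryos and -1.66, -0.07 and 0.237 in IVF embryos, and 1 IVF embryo was far below the rest. The gap between its groups was far smaller than its SE of 0.16. The gap was also under the SE in HIGD1A, HSP90AA1, NDUFA2, HNRNPH2 and PSMC2, and in SELENOP and GADD45A, where NT embryos lay below.

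SELENOP, a secreted protein that carries selenium, had -0.59, 0.82 and 1.63 in NT embryos, against 1.79, 2.11 and 2.81 in IVF embryos (-1.40 ± 0.19, adjusted p = 2.39e-07). GADD45A, a stress gene that binds proteins of DNA repair and demethylation, had -0.12, 0.66 and 0.91 in NT and 1.03, 1.64 and 1.92 in IVF embryos (-1.06 ± 0.14, adjusted p = 1.53e-07). The IVF embryos were close together in both genes, with an SD of 0.29 for SELENOP and 0.23 for GADD45A, and 1 NT embryo was far below the others in SELENOP.

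**Figure D2:**
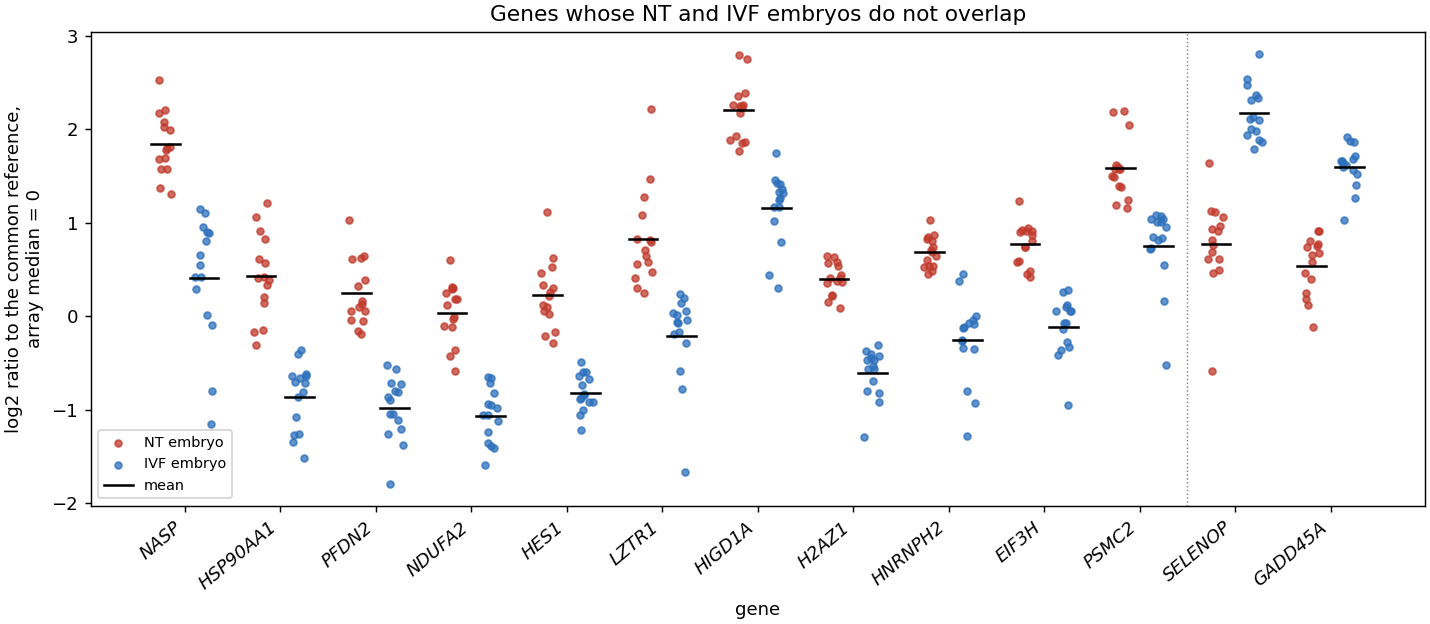
Level of each embryo (log2 ratio to the common reference, array median set to 0) for the 13 genes in which NT embryos (red, left of each pair) and IVF embryos (blue, right) do not overlap; black lines are means. In the 11 genes left of the dotted line all NT embryos are higher, and in SELENOP and GADD45A all are lower.

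Some proteins that bind RNA in the nucleus were higher in NT embryos. Of 82 measured genes of nuclear RNA processing 20 rose and 8 fell with a median difference of 0.13, where the median over all genes was 0.00. Of 27 hnRNP and SR proteins, which package nascent transcripts and steer splicing, 10 rose and 2 fell (median 0.26), and of 34 spliceosome genes 7 rose and 3 fell (median 0.12). HNRNPH3 had 0.73, 1.46 and 2.01 in NT and -1.29, 0.20 and 1.47 in IVF embryos (1.36 ± 0.19, adjusted p = 8.66e-07) and exceeded the average IVF embryo in 15 of 15 NT embryos. Its relative HNRNPH2 had 0.4545, 0.69 and 1.03 in NT and -1.28, -0.12 and 0.44875 in IVF embryos (0.94 ± 0.13). The groups did not overlap, but the gap between them was far smaller than the SE. HNRNPC, which binds uridine-rich stretches of introns, rose by 1.14 ± 0.19 (adjusted p = 1.01e-05), and BCAS2, a subunit of the PRP19 complex of the spliceosome, by 1.12 ± 0.15 (adjusted p = 1.53e-07). HNRNPA2B1 also passed (1.19 ± 0.18), but its 2 probes read -0.26 and 2.64, so that the gene's mean describes neither.

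Further large rises were single genes of tail, cap and import. PABPN1, which coats new poly(A) tails, had -0.36, 0.66 and 1.29 in NT embryos and -2.23, -1.08 and 0.07 in IVF embryos, a 3.16-fold rise. RAMAC, the activator of the cap methyltransferase, rose by 1.18 ± 0.20 (adjusted p = 1.53e-05), and LARP7, which holds the 7SK RNA that restrains transcription elongation, by 1.49 ± 0.22. RNF113A and ZCRB1, proteins of the spliceosome, rose by 1.47 ± 0.20 and 1.26 ± 0.19. IPO7, an importin that carries ribosomal proteins and histone H1, had -1.51, -0.50 and 0.38 in NT and -3.80, -2.48 and -0.46 in IVF embryos, whereas XPO6, the exportin of actin, fell by 0.56 ± 0.11 (adjusted p = 1.47e-04), a call that ended with arrays as deposited. Of 14 importins and exportins 3 rose (21.4%, against 13.9% of all genes) and 1 fell, and of 10 nuclear pore genes 1 rose and 1 fell. SRRT, which links the nuclear cap-binding complex to RNA turnover, was among the falls (-1.06 ± 0.22, adjusted p = 2.23e-04).

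In ribosome assembly in the nucleolus more genes rose than fell. Of 32 measured factors 9 rose (28.1%, against 13.9% of all genes) and 3 fell (9.38%, against 10.3%), with a median of 0.18. GAR1, a protein of the H/ACA snoRNPs that modify ribosomal RNA, had 1.85, 2.57 and 2.92 in NT embryos and -0.97, 0.72 and 1.90 in IVF embryos. UTP11, of the small subunit processome, rose by 0.93 ± 0.11 (adjusted p = 3.07e-08), NOP56, a core protein of the C/D snoRNPs, by 1.12 ± 0.19 (adjusted p = 2.05e-05), and NCL, the nucleolar protein nucleolin, by 0.74 ± 0.14 (adjusted p = 9.89e-05). ZCCHC17, another nucleolar protein, had -0.57, 0.52 and 1.37 in NT and -1.80, -0.85 and -0.14 in IVF embryos. DDX21, an RNA helicase of the nucleolus, fell by 0.50 ± 0.11 (adjusted p = 7.07e-04), which ended with arrays as deposited. RNA polymerase subunits were near the share over all genes: of 15 measured 3 rose (20%, against 13.9% of all genes) and 0 fell (median -0.02). POLR1H, a subunit of RNA polymerase I, had 0.68, 1.04 and 1.63 in NT and -2.24, -1.33 and 0.91 in IVF embryos. Its spread was 1.02 ± 0.28 in NT and -0.87 ± 1.12 in IVF embryos (mean ± SD).

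Ribosomal proteins themselves did not move as a body. Of 45 measured genes 9 rose (20%, against 13.9% of all genes) and 6 fell (13.3%, against 10.3%), with a median of -0.05. RPL30 was at 0.81 ± 0.14 and RPL22 at 0.76 ± 0.18. Translation factors were likewise divided, 8 higher and 6 lower of 32 (median 0.00). The rises included both forms of the helicase that unwinds the start of the message: EIF4A1 had 0.45, 1.29 and 1.84 in NT and -0.93, -0.34 and 0.90 in IVF embryos, and EIF4A2 -0.51, 0.29 and 1.02 in NT and -2.51, -1.13 and 0.20 in IVF embryos. EIF4B, which aids that helicase, rose by 0.67 ± 0.13, and EIF3H, a subunit of the factor that recruits the small ribosomal subunit, had 0.42, 0.80 and 1.23 in NT and -0.95, -0.07 and 0.28 in IVF embryos with no overlap. The termination factor GSPT1 fell by 0.60 ± 0.10 (adjusted p = 2.59e-05). Of 10 cytosolic tRNA synthetase genes 2 rose, SARS1 (1.04 ± 0.15) and YARS1 (1.04 ± 0.19), and 2 fell, among them KARS1 (-0.68 ± 0.11). The falls of GSPT1 and KARS1 ended with arrays as deposited.

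The respiratory chain had the largest share of called members among the lists of over 30 genes. Of 46 measured subunits 27 rose and 2 fell, with a median difference of 0.44. By complex, 11 of 21 subunits of complex I rose and 1 fell, 1 of 2 of complex II rose, 3 of 5 of complex III rose, 5 of 7 of complex IV rose, and 7 of 11 of ATP synthase rose and 1 fell. Each embryo's median over the 46 genes was -0.006 at the lowest, 0.21 in the middle and 0.54 at the highest in NT embryos, against -0.44, -0.11 and -0.04 in IVF embryos. The lowest NT embryo was thus just above the highest IVF embryo. The same medians overlapped between NT and IVF embryos for nuclear RNA processing, histones with their chaperones, NRF2 targets, cholesterol genes and the proteasome. For histones with their chaperones they ran from -0.14 to 0.74 in NT and from -0.55 to 0.21 in IVF embryos.

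**Figure D3:**
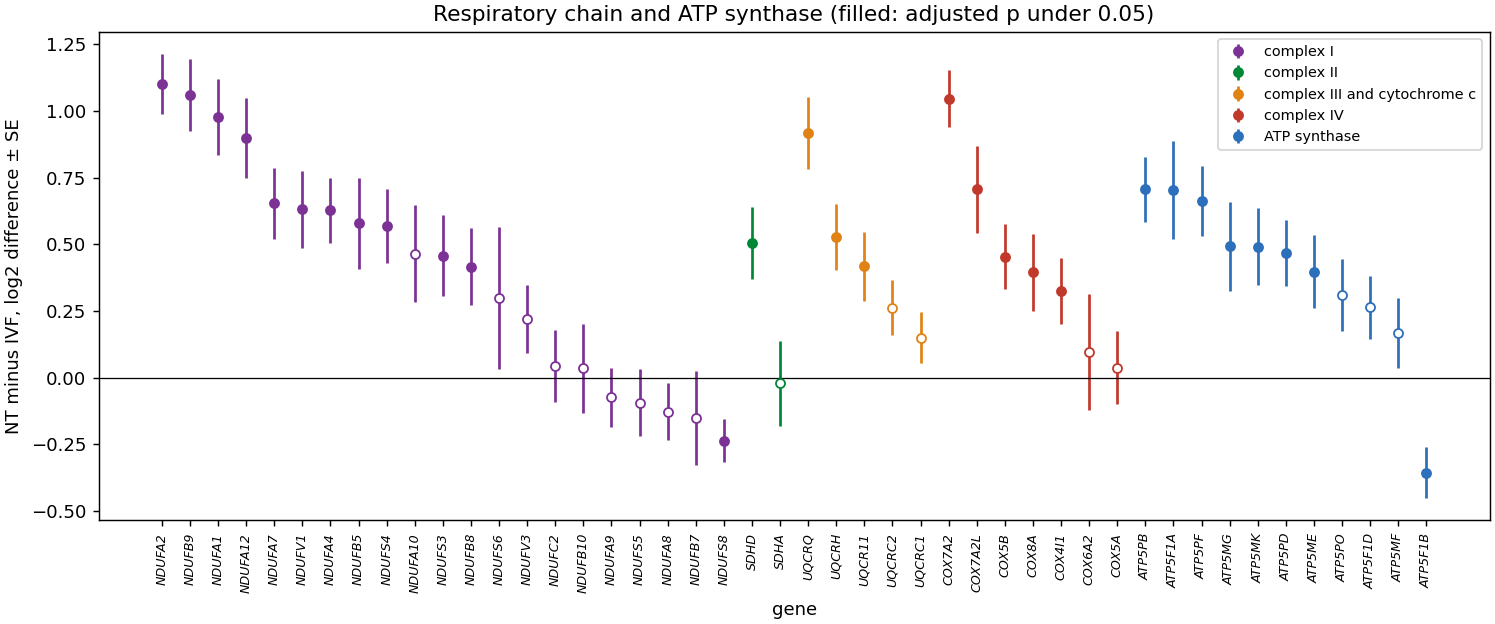
Difference NT minus IVF in log2 units with its SE (y axis) for the 46 measured subunits, by complex and size (x axis). Filled points passed the test: 27 are above 0, and NDUFS8 and ATP5F1B are below.

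NDUFA2, a small accessory subunit of complex I, had -0.59, 0.12 and 0.60 in NT embryos, against -1.59, -1.05 and -0.65 in IVF embryos (1.10 ± 0.11, adjusted p = 6.23e-10), with no overlap. COX7A2, of complex IV, had 0.15, 0.97 and 1.33 in NT and -0.68, -0.03 and 0.34 in IVF embryos (1.05 ± 0.11, adjusted p = 6.23e-10). Both are encoded in the nucleus, as are all subunits named here. NDUFB9, NDUFA1 and NDUFA12 of complex I rose by 1.06 ± 0.14, 0.98 ± 0.14 and 0.90 ± 0.15, UQCRQ of complex III by 0.92 ± 0.13 and ATP5PB, of the stalk of ATP synthase, by 0.71 ± 0.12. The core subunits did not follow a single direction. NDUFV1, which takes electrons from NADH, rose by 0.63 ± 0.14, and SDHA, the catalytic subunit of complex II, did not pass (-0.02 ± 0.16, adjusted p = 0.945). In ATP synthase ATP5F1A, at 0.70 ± 0.18, and ATP5F1B, at -0.36 ± 0.10, were opposed. The rise of ATP5F1A ended with the sample in Cy3 alone, and the fall of ATP5F1B with the NT embryos labelled 3_ alone (-0.15 ± 0.11). That of NDUFS8 ended with the same embryos, with the sample in Cy5 alone and with array weights. With arrays as deposited NDUFS8 and ATP5F1B had small positive differences that did not pass, and 35 of the 46 genes were higher.

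Other mitochondrial groups moved in part. Of 39 mitochondrial ribosomal proteins 13 rose and 1 fell (median 0.16), with MRPS34 (0.49 ± 0.09), MRPS17 (0.77 ± 0.16) and MRPL48 (0.76 ± 0.18) among the rises, and HARS2, a mitochondrial tRNA synthetase, rose by 1.31 ± 0.22 (adjusted p = 1.20e-05). Of 18 genes of protein import 6 rose and 3 fell. TOMM7, a small subunit of the outer membrane pore, had 0.15, 0.83 and 1.26 in NT and -1.00, -0.25 and 0.57 in IVF embryos (1.02 ± 0.13, adjusted p = 1.04e-07), HSPE1, the lid of the matrix chaperonin, rose by 0.94 ± 0.14, and TOMM70, a receptor for carrier proteins, fell by 0.59 ± 0.13, which ended both with arrays as deposited and with the NT embryos labelled 3_ alone (-0.35 ± 0.17). Of 10 carriers of the inner membrane 3 rose and 0 fell, led by the ADP/ATP carriers SLC25A6 (1.04 ± 0.14, adjusted p = 1.95e-07) and SLC25A5 (0.69 ± 0.16).

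Of 11 genes of mitochondrial fatty acid oxidation 4 rose and 0 fell (median 0.12), among them ETFB (0.57 ± 0.14), a subunit of the flavoprotein that passes electrons to the chain. Of 12 genes of the citric acid cycle and the steps that feed it 3 rose and 1 fell: SUCLG2, a subunit of succinyl-CoA ligase, had 0.12, 0.55 and 1.18 in NT and -1.62, -0.20 and 0.29 in IVF embryos, and PDHB, of pyruvate dehydrogenase, rose by 0.52 ± 0.11, which ended with the sample in Cy3 alone. PC, pyruvate carboxylase, fell by 0.54 ± 0.11, which ended with arrays as deposited. PPM1K, a matrix phosphatase that turns on the breakdown of branched-chain amino acids, had 0.51, 1.69 and 2.78 in NT and -0.93, 0.31 and 0.92 in IVF embryos. HSD17B10, a matrix dehydrogenase that also serves mitochondrial tRNA processing, rose by 1.07 ± 0.20, and AIFM1, a flavoprotein of the intermembrane space, by 0.94 ± 0.19 (adjusted p = 2.20e-04).

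Glycolysis held more falls than rises. Of 15 measured genes 2 rose (13.3%, against 13.9% of all genes) and 4 fell (26.7%, against 10.3%), with a median of -0.13. GAPDH had -3.16, -2.27 and -1.67 in NT embryos and -2.27, -1.49 and -0.15 in IVF embryos (-0.82 ± 0.15, adjusted p = 3.81e-05), ENO1, enolase, fell by 0.82 ± 0.18 and ALDOA, aldolase, by 0.50 ± 0.13. All 4 falls ended with arrays as deposited, where 4 genes were higher and 0 lower, and those of ENO1 and ALDOA also with the NT embryos labelled 3_ alone, and that of ALDOA with 1 probe per gene. Of 14 targets of the hypoxia factor HIF 3 rose (21.4%, against 13.9% of all genes) and 2 fell (14.3%, against 10.3%). DDIT4, which restrains mTORC1 under stress, rose the most, with -1.32, -0.41 and 0.22 in NT and -2.94, -1.72 and -0.73 in IVF embryos (1.26 ± 0.19, adjusted p = 1.96e-06).

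Some genes of the amino acid response, by which cells make and take up amino acids under shortage, were higher in NT embryos. Of 16 measured members 5 rose and 0 fell (median 0.18). PSPH, the last enzyme of serine synthesis, had -2.29, -0.06 and 1.77 in NT embryos, against -3.80, -1.90 and -1.00 in IVF embryos, and its NT embryos spread widely. MTHFD1 and MTHFD1L, which carry 1-carbon units on folate, rose by 0.80 ± 0.18 and 0.67 ± 0.12, and SLC3A2, the heavy chain of amino acid exchangers, by 0.72 ± 0.12 (adjusted p = 1.13e-05). The factor ATF4 itself (0.04 ± 0.17, adjusted p = 0.907) and its stress targets DDIT3 (-0.13 ± 0.19, adjusted p = 0.683) and TRIB3 (-0.22 ± 0.17, adjusted p = 0.391) did not pass.

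Of the enzymes that make sterols 3 were lower in NT embryos. GGPS1, which branches off the mevalonate pathway and is counted with it here, was higher. By stage, of 4 measured enzymes of the mevalonate pathway 1 fell and 1 rose (median -0.37), and of 5 from squalene to cholesterol 2 fell and 0 rose. FDPS, which makes farnesyl diphosphate in the mevalonate pathway, had -2.01, -0.99 and 0.32 in NT embryos and -0.90, 0.30 and 1.19 in IVF embryos (-1.12 ± 0.24, adjusted p = 5.16e-04), and in 14 of 15 NT embryos it lay under the IVF average. LSS, which closes the rings of lanosterol, had -1.97, -1.26 and -0.26 in NT and -1.08, -0.10 and 1.46 in IVF embryos (-1.25 ± 0.22, adjusted p = 4.04e-05), and MSMO1, which removes methyl groups from the sterol, had -1.14, -0.37 and 1.68 in NT and -0.39, 1.30 and 1.84 in IVF embryos (-1.34 ± 0.34, adjusted p = 0.00242). IDI1, the step before FDPS (-0.65 ± 0.36, adjusted p = 0.199), and NSDHL, a later demethylase (-0.41 ± 0.23, adjusted p = 0.198), had negative differences that did not pass, and ACAT2 lay at -0.09 ± 0.16.

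Of 7 genes that sense, take up and transfer sterol 2 rose and 2 fell (median 0.12). INSIG2, which holds the sterol sensor SCAP in the endoplasmic reticulum when sterol is ample, rose by 0.95 ± 0.19 (adjusted p = 1.40e-04), and SOAT1, which esterifies cholesterol for storage, by 0.84 ± 0.17 (adjusted p = 1.63e-04). MYLIP, a ubiquitin ligase that removes the LDL receptor, had the largest difference of all genes, with -4.81, -2.74 and -0.92 in NT embryos and -1.77, -0.87 and 0.32 in IVF embryos. GGPS1, a branch enzyme after FDPS, rose by 0.57 ± 0.17 (adjusted p = 0.0116), which ended with the sample in Cy5 alone and with the NT embryos labelled 3_ alone (0.34 ± 0.21). Of 6 genes of fatty acid synthesis and activation 3 fell and 1 rose (median -0.43): ACLY, which makes cytosolic acetyl-CoA, fell by 0.47 ± 0.12 (adjusted p = 0.00206) and ACSL6, an acyl-CoA synthetase, rose by 0.89 ± 0.14 (adjusted p = 4.65e-06). With arrays as deposited, FDPS, LSS, MSMO1 and MYLIP were still lower in NT embryos, whereas the falls of ACLY, ELOVL1 and ACSL1 ended. The call of ACLY also ended with 1 probe per gene, that of ELOVL1 with the NT embryos labelled 2_ alone, and that of ACSL1 with those labelled 3_ alone and with the sample in Cy5 alone.

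Antioxidant genes moved in both directions. NRF2 is a transcription factor that is freed from KEAP1 by oxidants and electrophiles and switches on genes of thioredoxin, glutathione and haem breakdown. Of 20 measured members 7 fell and 2 rose (median -0.07). TXNRD1, the cytosolic thioredoxin reductase, had 0.75, 1.20 and 2.01 in NT embryos, against 1.81, 2.40 and 3.02 in IVF embryos (-1.12 ± 0.14, adjusted p = 1.40e-07). HMOX1, haem oxygenase, had -3.19, -1.41 and 0.01 in NT and -1.84, 0.12 and 1.49 in IVF embryos (adjusted p = 3.70e-04), a fall of 2.92-fold. ABCC2, an exporter of glutathione conjugates, had -0.91, 1.78 and 2.48 in NT embryos and 1.78, 2.95 and 3.57 in IVF embryos, and 2 NT embryos, at -0.91 and 0.06, were far below the others.

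The gene of NRF2 itself, NFE2L2, fell by 0.64 ± 0.15 (adjusted p = 0.00104), GSR, glutathione reductase, by 0.81 ± 0.21 (adjusted p = 0.0028) and ME1, a source of NADPH, by 0.76 ± 0.23 (adjusted p = 0.0118), while KEAP1 rose by 0.36 ± 0.11 (adjusted p = 0.0152). The rise of KEAP1 ended with the sample in Cy3 alone and with the NT embryos labelled 2_ alone, and the fall of ME1 with those labelled 3_ alone. ME1 was low in both kinds, with -4.70, -4.31 and -3.01 in NT embryos and -4.55, -3.63 and -1.05 in IVF embryos. Other classical targets did not pass, among them NQO1 (0.08 ± 0.12, adjusted p = 0.673), GCLM (0.42 ± 0.24, adjusted p = 0.204) and TXN (0.01 ± 0.15, adjusted p = 0.971). With arrays as deposited 3 members were lower, TXNRD1, HMOX1 and ABCC2, and 5 were higher. Of 22 other antioxidant genes 8 rose and 4 fell (median 0.22). The mitochondrial pair TXN2 and PRDX3, a thioredoxin and the peroxidase it serves, rose by 0.98 ± 0.16 and 0.90 ± 0.16, and PARK7, an oxidant sensor, by 0.71 ± 0.14. GPX4, which reduces lipid peroxides, fell by 0.69 ± 0.11 (adjusted p = 4.15e-06) and SELENOF, a selenoprotein of the endoplasmic reticulum, by 0.61 ± 0.09; both calls ended with arrays as deposited, and that of SELENOP did not.

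Of 21 proteasome subunits 8 rose and 1 fell (median 0.16). PSMC2, an ATPase of the 19S cap, had 1.15, 1.57 and 2.19 in NT embryos and -0.52, 0.84 and 1.08 in IVF embryos (0.82 ± 0.13, adjusted p = 4.65e-06), with no overlap, and PSMB5, PSMA6 and PSMA4 of the 20S core rose by 0.86 ± 0.17, 0.73 ± 0.13 and 0.72 ± 0.14. PSME4, a nuclear activator of the proteasome, fell by 0.62 ± 0.14, which ended with arrays as deposited. Of 11 chaperonin and prefoldin genes 4 rose and 0 fell (median 0.32). PFDN2, a prefoldin subunit that hands actin and tubulin to the chaperonin, had -0.20, 0.13 and 1.03 in NT embryos, against -1.80, -0.90 and -0.52 in IVF embryos (1.23 ± 0.12, adjusted p = 5.86e-10).

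Of 17 genes of the HSP70, HSP90 and small heat shock families 2 rose and 4 fell, and of 19 DNAJ co-chaperones 1 rose and 5 fell (median -0.12). HSP90AA1, the inducible HSP90, had -0.30, 0.40 and 1.21 in NT and -1.52, -0.71 and -0.36 in IVF embryos with no overlap (1.29 ± 0.17, adjusted p = 1.40e-07). HSF1, the factor that induces heat shock genes, fell by 0.73 ± 0.11 (adjusted p = 2.25e-06), DNAJB1, a co-chaperone of HSP70, by 0.97 ± 0.14 (adjusted p = 1.78e-06) and HSPB8, a small heat shock protein of selective autophagy, by 1.32 ± 0.27 (adjusted p = 2.20e-04). The difference of DNAJB1 was -1.29 ± 0.15 with the NT embryos labelled 2_ alone and -0.61 ± 0.16 with those labelled 3_ alone, and passed in both. The fall of HSF1 ended with arrays as deposited, where 1 DNAJ gene was lower and 2 were higher. In the endoplasmic reticulum 4 of 22 folding genes rose and 3 fell, with CALR, a calcium-binding chaperone, at 0.50 ± 0.11 and SYVN1, a ligase of misfolded proteins, at -0.68 ± 0.12. The call of SYVN1 ended with arrays as deposited, where 8 of the 22 were higher and 0 lower.

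**Figure D4:**
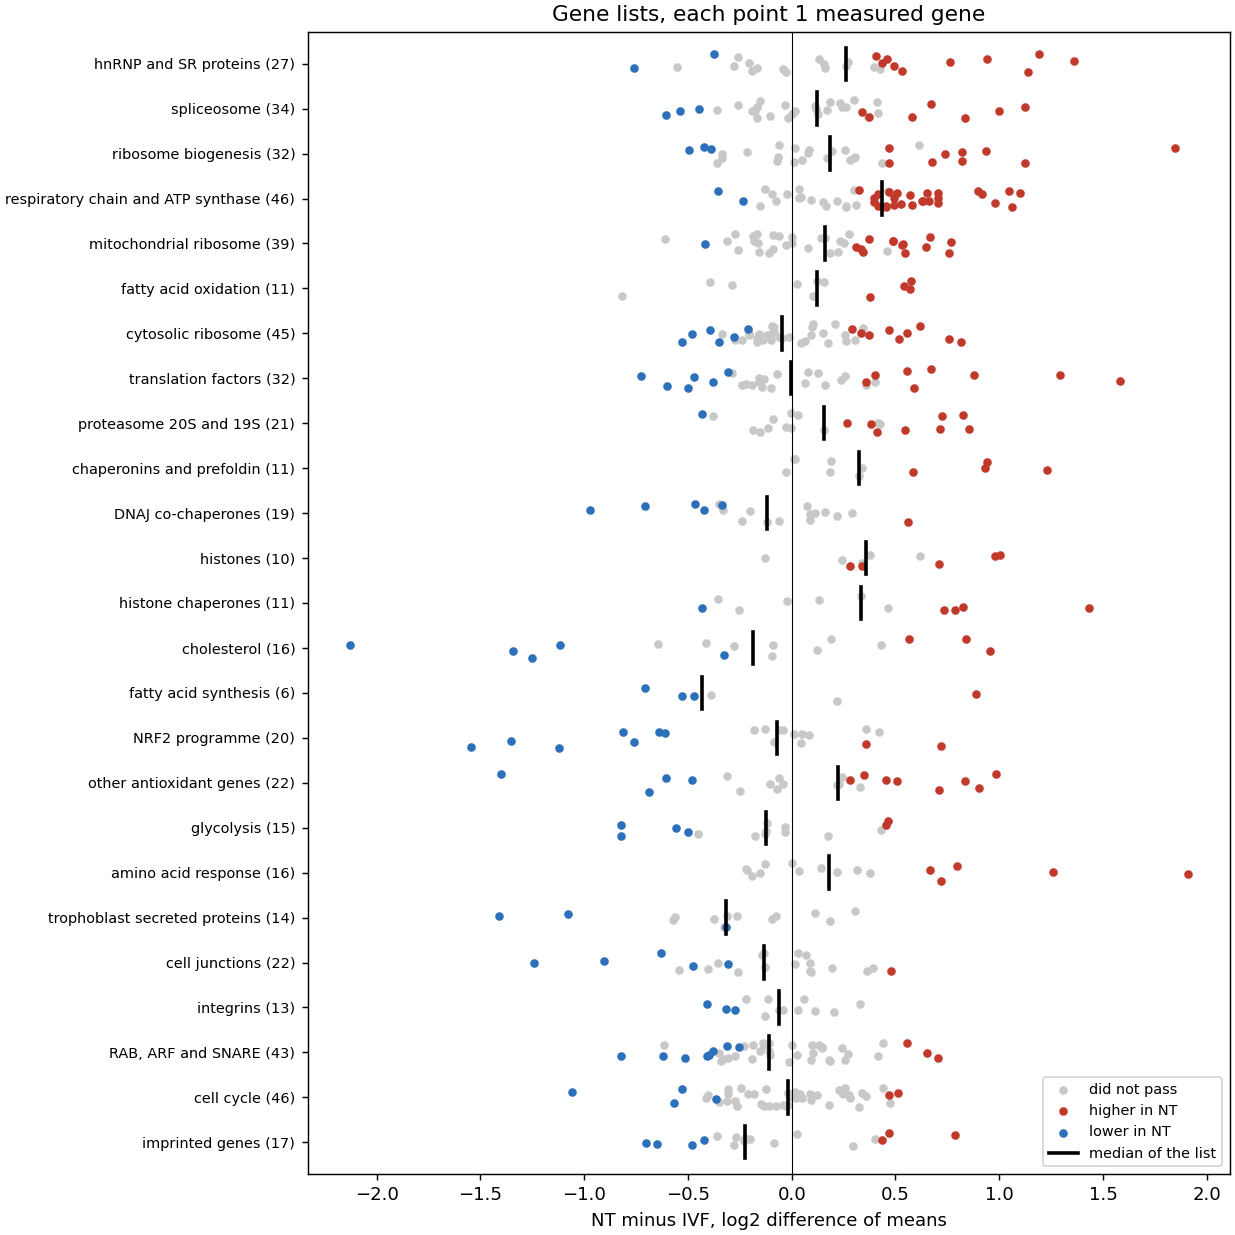
Difference NT minus IVF in log2 units (x axis) of each measured gene in 25 lists (y axis, with the number of genes measured). Red points passed the test as higher in NT embryos, blue as lower and grey did not pass; black bars are list medians, the highest of which is that of the respiratory chain at 0.44 and the lowest that of fatty acid synthesis at -0.43.

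Of 10 measured histone genes 5 rose and 0 fell (median 0.36), and of 11 histone chaperones 4 rose and 1 fell (median 0.33). Beside H2AZ1, the variants H3-3A, which replaces H3 outside replication, and H2AZ2 rose by 0.98 ± 0.15 (adjusted p = 2.50e-06) and 0.71 ± 0.11 (adjusted p = 2.83e-06). The linker histone H1-2 had 0.62 ± 0.26 (adjusted p = 0.0833), and MACROH2A1, a variant linked with silent chromatin, 0.34 ± 0.16 (adjusted p = 0.123); neither passed. Of the chaperones SET rose by 0.83 ± 0.13, NAP1L4 by 0.79 ± 0.14 and ASF1A, which hands H3 and H4 to assembly factors, by 0.73 ± 0.15, while SUPT16H, of the FACT complex, passed as lower (-0.43 ± 0.12) but not with arrays as deposited or with the sample in Cy3 alone.

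Of 75 other chromatin genes 13 rose and 8 fell (median 0.06). DNMT3A, a methyltransferase that sets new DNA methylation, had 1.59, 2.37 and 3.88 in NT and 0.21, 1.42 and 2.43 in IVF embryos (1.02 ± 0.22, adjusted p = 4.93e-04), a call that ended with the sample in Cy3 alone. TDG, which excises oxidised methylcytosine, fell by 0.78 ± 0.23 (adjusted p = 0.0096), which ended with arrays as deposited. The NT embryos labelled 2_ alone gave TDG -0.30 ± 0.24, which did not pass (adjusted p = 0.433), and those labelled 3_ alone gave -1.34 ± 0.26 (adjusted p = 4.13e-04). MPHOSPH8, a reader of methylated H3 in the HUSH silencing complex, had -0.66, 1.12 and 2.50 in NT and -1.70, -0.79 and 1.18 in IVF embryos, KDM2B, which binds unmethylated CpG islands, rose by 0.99 ± 0.16, and SMARCA2, an ATPase of the BAF remodeller, by 0.94 ± 0.14. Other BAF subunits went the other way: SMARCE1 had -2.04, -0.85 and 0.46 in NT and -1.21, 0.27 and 0.97 in IVF embryos (-1.02 ± 0.20, adjusted p = 1.22e-04), and ARID1A fell by 0.79 ± 0.14, which ended with arrays as deposited. HMGA1, an AT-hook protein of open chromatin, fell by 1.20 ± 0.20 (adjusted p = 1.72e-05), and HMGB1, an abundant DNA-bending protein, rose by 0.89 ± 0.16 (adjusted p = 3.09e-05).

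Imprinted genes, which are expressed from 1 parental copy and whose errors are a known feature of cloned cattle, showed no common direction. Of 17 measured 3 rose and 4 fell (median -0.23). The growth factor IGF2 lay at 0.03 ± 0.14 (adjusted p = 0.923), its clearance receptor IGF2R at -0.28 ± 0.12 (adjusted p = 0.0892) and H19, a non-coding RNA, at 0.29 ± 0.12 (adjusted p = 0.0772). None of these passed, and PHLDA2, a brake on placental growth, lay at -0.23 ± 0.28 (adjusted p = 0.605). The falls with the smallest p were UBE3A, a ubiquitin ligase (-0.65 ± 0.14, adjusted p = 6.98e-04), and DLK1, a membrane ligand related to Notch ligands (-0.48 ± 0.13, adjusted p = 0.00516), and both ended with arrays as deposited, where 5 of the 17 were higher and 0 lower. The fall of UBE3A also ended with the NT embryos labelled 3_ alone (-0.43 ± 0.17) and that of DLK1 with the sample in Cy3 alone. The levels here do not separate the parental copies.

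Of 14 measured genes of secreted ruminant trophoblast proteins 3 fell, 11 did not pass and 0 rose (median -0.31). TKDP1, a trophoblast Kunitz domain protein, had 0.30, 1.47 and 2.92 in NT embryos, against 0.87, 3.04 and 4.03 in IVF embryos (-1.41 ± 0.36, adjusted p = 0.00294). Its relative TKDP4 had -0.45, -0.02 and 0.72 in NT and 0.18, 0.99 and 2.30 in IVF embryos (-1.08 ± 0.18, adjusted p = 1.61e-05). Of the pregnancy-associated glycoproteins PAG8 passed (-0.32 ± 0.11, adjusted p = 0.0256), a call that ended with arrays as deposited, with the sample in Cy5 alone, without NT embryo 3_3 and with the NT embryos labelled 2_ alone (-0.14), and PAG10 (-0.57 ± 0.24, adjusted p = 0.0779) and PAG11 (-0.38 ± 0.19, adjusted p = 0.158) did not. These genes belong to a large family of similar sequences, so that a cDNA probe may also bind relatives. Of 12 transcription factors of the trophectoderm 2 rose, with ID2 the clearer (0.57 ± 0.14, adjusted p = 0.00171), and 2 fell, TFAP2A (-0.75 ± 0.22) and TEAD4 (-0.37 ± 0.11). Both falls ended with arrays as deposited, where TEAD4 was at 0.02, with the sample in Cy5 alone and with the NT embryos labelled 2_ alone, and that of TEAD4 also with the sample in Cy3 alone. GATA3 (-0.28 ± 0.17, adjusted p = 0.232) and GATA2 (-0.01 ± 0.10, adjusted p = 0.941) did not pass.

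Of 4 measured keratins of the epithelium 2 fell and 0 rose (median -0.16). With arrays as deposited, or with the NT embryos labelled 3_ alone, 0 keratins were lower. KRT8 (-0.00 ± 0.14, adjusted p = 0.993) and KRT18 (0.04 ± 0.16, adjusted p = 0.894) did not pass. Of 22 junction genes 5 fell (22.7%, against 10.3% of all genes) and 1 rose (4.55%, against 13.9%), with a median of -0.13. Among these junction genes 2 were lower and 7 higher with arrays as deposited, where the median was 0.25. DSC2, a desmosomal cadherin, had -2.68, 1.68 and 2.44 in NT embryos and 1.77, 2.59 and 3.33 in IVF embryos, and 1 NT embryo was far below the rest. PPL, a plakin that ties keratins to desmosomes, fell by 0.90 ± 0.12 (adjusted p = 4.57e-07) and SFN, an epithelial 14-3-3 protein, had 0.28, 0.79 and 1.94 in NT and 1.58, 2.11 and 2.83 in IVF embryos (-1.21 ± 0.15, adjusted p = 3.07e-08). Of 5 genes of the sodium pump and water channels, which fill the cavity, 3 rose and 0 fell: ATP1B3, a pump subunit, by 0.70 ± 0.12 (adjusted p = 2.79e-05) and AQP1, a water channel, by 0.44 ± 0.10 (adjusted p = 6.59e-04) were the clearest. Among 6 genes of the inner cell mass and pluripotency STAT3, a factor of cytokine signalling, rose by 1.11 ± 0.20 and KLF4 by 0.69 ± 0.18, and SALL4 fell by 0.58 ± 0.10. The fall of SALL4 ended with arrays as deposited, and the rise of KLF4 with the NT embryos labelled 3_ alone.

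Adhesion, proteolysis and signalling held several of the largest falls. PLAU, the urokinase that activates plasminogen, had -3.00, -1.13 and 0.51 in NT embryos and -0.63, 0.52 and 1.39 in IVF embryos (-1.68 ± 0.28, adjusted p = 1.68e-05). Of 13 integrins 3 fell and 0 rose, each by under 0.5, and all 3 ended with arrays as deposited, while of 26 matrix proteins 4 rose and 5 fell, with FN1, fibronectin, at 0.79 ± 0.15 and THBS1, thrombospondin, at 0.46 ± 0.09. GAB1, a docking protein of receptor kinases, had -1.20, -0.13 and 0.92 in NT and 0.22, 1.12 and 1.69 in IVF embryos (-1.11 ± 0.22, adjusted p = 1.33e-04), and ETV5 and ETS1, factors downstream of such receptors, fell by 1.12 ± 0.28 and 1.10 ± 0.25, and the call of ETV5 ended with the sample in Cy3 alone and with the NT embryos labelled 2_ alone. HBEGF, a ligand of the epidermal growth factor receptor, fell by 0.83 ± 0.19, which ended with arrays as deposited. Of 37 ligands, receptors and binding proteins 6 rose and 3 fell, and beside HES1 the receptor NOTCH3 rose by 0.45 ± 0.09 (adjusted p = 1.22e-04). WWTR1, a co-activator of the Hippo pathway, rose by 0.93 ± 0.14 (adjusted p = 3.75e-06), and its known target CCN2 fell by 0.68 ± 0.13 (adjusted p = 1.47e-04), a call that ended with arrays as deposited.

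Immune and lysosomal genes were divided. Of 55 immune genes 8 rose (14.5%, against 13.9% of all genes) and 9 fell (16.4%, against 10.3%). CD59, which shields cells from complement, had -0.16, 1.27 and 1.83 in NT and -1.98, -0.01 and 0.64 in IVF embryos, and IL1RN, which blocks the interleukin-1 receptor, 1.34, 2.29 and 2.90 in NT and -0.83, 0.93 and 1.70 in IVF embryos. LGALS3, a galectin, fell by 1.00 ± 0.12 (adjusted p = 8.63e-08). Of 55 lysosomal genes 11 rose and 11 fell: IFI30, a thiol reductase, had -2.10, -0.79 and 0.28 in NT embryos and -0.40, 1.21 and 3.30 in IVF embryos, while LAMP2, a lysosomal membrane protein, rose by 0.82 ± 0.12 (adjusted p = 1.50e-06) and MANBA, a mannosidase, by 0.94 ± 0.18. Of 43 RAB, ARF and SNARE genes of vesicle traffic 3 rose and 8 fell (median -0.11), led by RAB32 (-0.82 ± 0.13, adjusted p = 7.19e-06) and ARF4 (-0.51 ± 0.10, adjusted p = 7.42e-05), and with arrays as deposited 15 were higher and 0 lower.

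Cell cycle genes showed few differences. Of 46 measured 2 rose and 4 fell, 4.35% and 8.7%, with a median of -0.02, and the largest was GADD45A. CDK4, a kinase of the first growth phase, fell by 0.53 ± 0.14, which ended both with arrays as deposited and with the NT embryos labelled 3_ alone. PARP1, which marks DNA breaks with ADP-ribose, was higher, with -2.62, -1.30 and -0.18 in NT embryos and -3.60, -2.69 and -1.45 in IVF embryos (1.27 ± 0.24, adjusted p = 7.42e-05), as was RNASEH2A, which removes RNA from DNA, with 0.94, 1.53 and 2.69 in NT and -0.13, 0.52 and 1.18 in IVF embryos. PARP1 was at 1.75 ± 0.25 with the NT embryos labelled 2_ alone (adjusted p = 5.02e-06), but with those labelled 3_ alone its difference of 0.73 ± 0.27 did not pass (adjusted p = 0.0641). Of 10 apoptosis genes 1 rose (10%, against 13.9% of all genes) and 2 fell (20%, against 10.3%).

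No gene separated the 2 series of NT labels. Between the 8 embryos labelled 2_ and the 7 labelled 3_, 0 of 4398 genes passed (0%) in limma, with 344 genes at an unadjusted p under 0.05 (7.82%) and a smallest adjusted p of 0.314. Among the 1066 genes called between NT and IVF embryos the difference between the label series had a median size of 0.16 and a largest of 1.04, in TDG. Over all genes the SD between embryos had a median of 0.405 in NT and 0.446 in IVF embryos, and it was larger in NT embryos for 1883 of 4398 genes. A miss of the threshold with 8 against 7 embryos does not show that the label series are the same.

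The AI embryos, measured in the same way, give a further level for each gene. In the 612 genes higher in NT than in IVF embryos the AI mean lay nearer to the NT mean in 479 (78.3%), and in the 454 lower genes in 336 (74%). Over all 4398 genes it did so in 62.3%. GAR1 averaged 2.56 ± 0.29 in NT, 2.37 ± 0.44 in AI and 0.71 ± 0.86 in IVF embryos (mean ± SD), and HSP90AA1 0.43 ± 0.45 in NT, 0.68 ± 0.54 in AI and -0.86 ± 0.35 in IVF embryos. TXNRD1 averaged 1.26 ± 0.36 in NT, 1.10 ± 0.46 in AI and 2.38 ± 0.38 in IVF embryos. In these 3 genes the AI embryos were close to the NT embryos.

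For other genes the AI mean lay with IVF or apart from both. PSPH averaged -0.09 ± 1.09 in NT, -2.56 ± 1.00 in AI and -2.00 ± 0.77 in IVF embryos, and IFI30 -0.82 ± 0.63 in NT, 0.69 ± 1.00 in AI and 1.21 ± 0.90 in IVF embryos. DDIT4 averaged -0.45 ± 0.48 in NT, -1.24 ± 0.55 in AI and -1.71 ± 0.57 in IVF embryos, and IPO7 -0.55 ± 0.61 in NT, -1.44 ± 0.86 in AI and -2.30 ± 0.83 in IVF embryos. The respiratory chain was not among these. Each embryo's median over its genes was 0.086 to 0.59 in AI embryos, with a middle value of 0.36. That range overlapped the NT range of -0.006 to 0.54 and lay above the highest IVF embryo at -0.04.

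**Figure D5:**
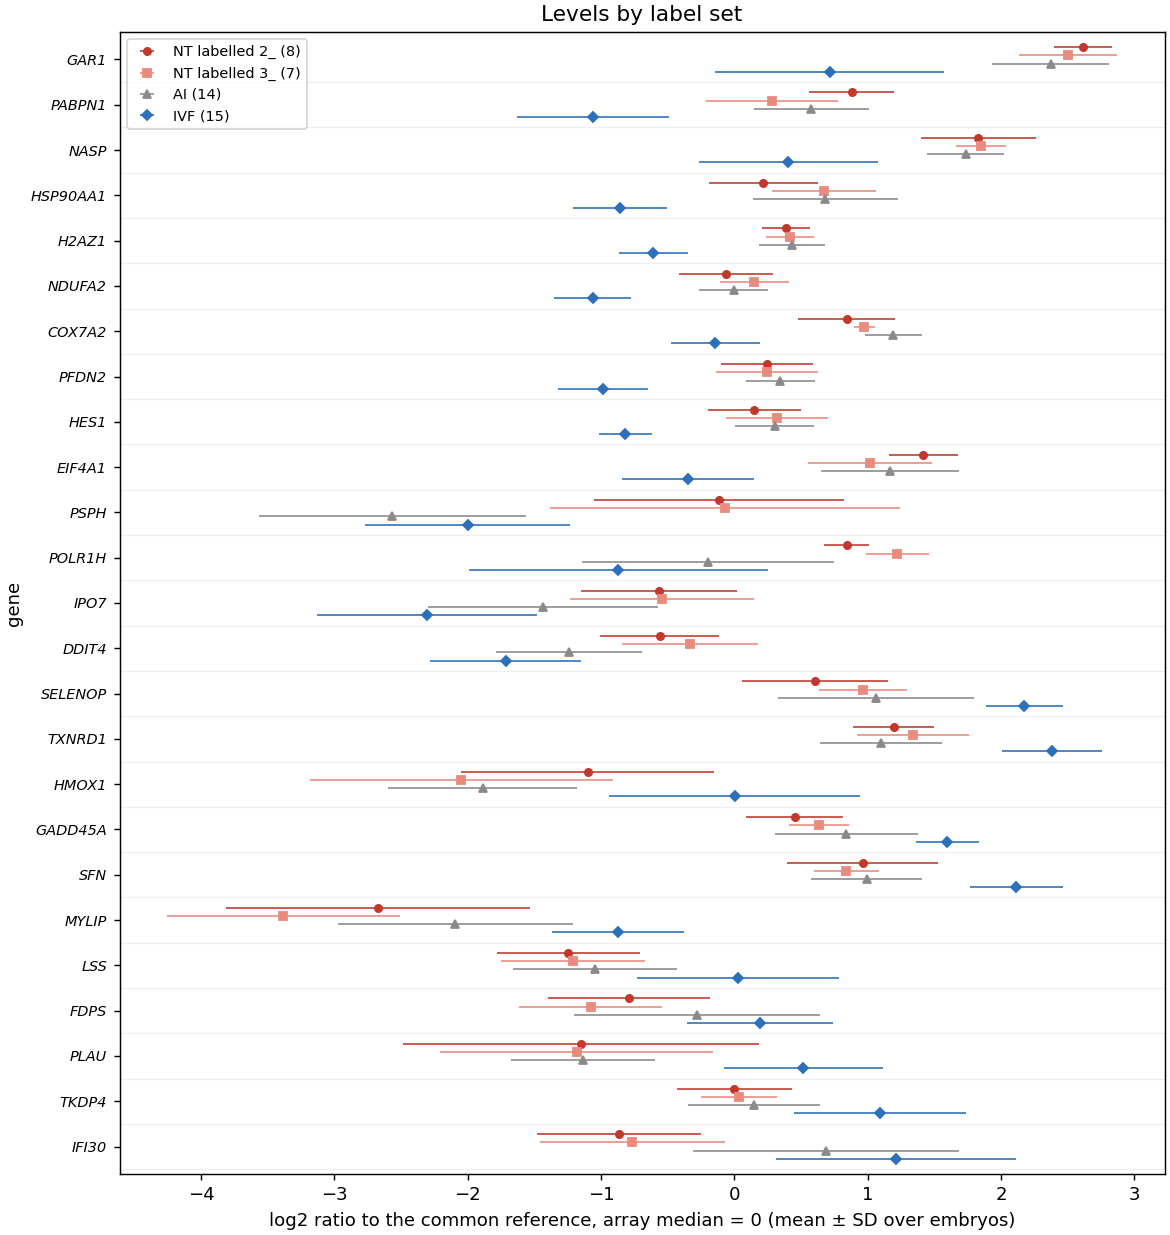
Mean level with its SD over embryos (x axis, log2 ratio to the common reference, array median set to 0) of 25 genes (y axis) in NT embryos labelled 2_ (red circles) and 3_ (light red squares), AI embryos (grey triangles) and IVF embryos (blue diamonds). The 2 series of NT embryos lie close together, and for many genes, such as GAR1 and TXNRD1, AI embryos lie nearer to NT than to IVF embryos.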

How the data were processed

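Per the labels' protocols, embryo and reference RNA was amplified linearly and its cDNA was coupled to dyes for 2-colour cDNA arrays. The authors deposited 1 log2 ratio of the dyes for each spot; per the labels no scanner software, background correction, normalisation or ratio direction is given in the sources used here, and no intensities were used. A fill value of 16.61 in 2657 cells was set to missing, and 4.39% of cells were empty. The sign of arrays that carried the sample in Cy3 was turned, each array was centred on its median (array medians ran from -2.14 to 0.862), the 2 adjacent spots of a probe were averaged, and an embryo's value is the mean of its 2 arrays, missing where either array had none. Probes with values in at least 50% of each kind of embryo and in both donor samples were kept (7992 of 8208), and the probes of each singly named symbol were averaged, which gave 4398 genes. An Entrez ID of the RefSeq gene table was found for 5591 of the 5598 probes with 1 symbol. The number of arrays limits the precision.

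All 46 samples entered 1 linear model of group means in limma 3.58.1 under R 4.3.3 (lmFit, eBayes, 2-sided, Benjamini-Hochberg adjustment, threshold 0.05). Nothing in the labels says whether embryos came from separate parents or cultures. On simulated data for this comparison with 4398 genes, 92% of genes changed by 1 log2 unit were called, and 46% of those lowered and 42% of those raised by 0.5. The members and gene lists were chosen with earlier results of these data known. The genes named are, among called genes, from the 40 that rose most and the 40 that fell most, up to 6 called members of each list by smallest p, and any measured member of the cholesterol, respiratory chain, histone, NRF2, trophoblast, DNA methylation and imprinted lists; the cell type markers, ATF4, DDIT3, TRIB3, HIGD1A and LZTR1 were named outside this rule. 1 of the largest falls is not reported here. Alternatives were arrays as deposited, quantile normalisation, a common median absolute deviation, either dye alone, other filters, 1 probe per gene, other fits, either series of NT labels alone and leaving out each embryo.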

Additional observations from a re-analysis of the deposited data

How the results depend on the processing

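Directions depend most on centring. With arrays as deposited the calls between NT and IVF embryos became 1755 genes, 1710 higher and 45 lower, of which 657 had been called in the same direction after centring. Probes gave 2760 calls, 2675 higher and 85 lower. Against the 1066 genes called after centring (612 higher, 454 lower), quantile normalisation gave 1090, a common median absolute deviation 1094, a filter of 80% 1096, no filter 1054, 1 probe per gene 1126, a value from 1 array 1049 (an alternative chosen after seeing the data), only NT and IVF embryos in the fit 1040 and array weights 1153. The sample in Cy5 alone gave 770 calls and in Cy3 alone 875, each with 1 array per embryo. With the 8 NT embryos labelled 2_ alone 739 genes were called, 403 higher and 336 lower, and with the 7 labelled 3_ alone 697, 446 higher and 251 lower; both rest on fewer embryos. Leaving out each of the 30 embryos in turn gave 993 to 1060 calls, 565 to 613 higher and 413 to 464 lower. NDUFS8 (0.15), ATP5F1B (0.0254), TEAD4 (0.0160) and PAG8 (0.0667) changed sign with arrays as deposited, which the shift of 0.38 by construction accounts for. Of 162 called genes named in the text, 37 lost their call with arrays as deposited, 33 by a weaker difference and 4 by a change of sign. Of these 162 genes 7 lost it with the sample in Cy5 alone, 8 with Cy3 alone, 7 with the NT embryos labelled 2_ alone, 12 with those labelled 3_ alone, 2 with 1 probe per gene, 1 with array weights, 1 with a value from 1 array, 0 under quantile normalisation or a common median absolute deviation, and 1, PAG8, without a single embryo, NT 3_3 (adjusted p = 0.0545). No paired analysis was possible because NT and IVF embryos share no replicate numbers. Between the NT label series 0 genes passed uncentred or in either dye orientation, with 529, 242 and 481 genes at an unadjusted p under 0.05. No intensities were used, so that dim spots could not be told from bright ones.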

Other observations

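Of 121 genes placed on the X chromosome in the RefSeq gene table, 34 were higher and 7 lower in NT embryos, with a median difference of 0.12, where 13.9% of all genes were higher and 10.3% lower. Embryo sex is not given in the labels.

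Of 202 called genes with several probes, 21 had probes of both signs. Examples chosen after their values were seen are BNIP3, a mitochondrial protein of the hypoxia response, with probes at -0.85 and 0.01, and SYNCRIP, an hnRNP, with 4 probes from -0.17 to 1.32.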
